A study of Mus musculus with 6 samples.

Results

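The genes described here encode subunits of Polycomb repressive complexes 1 and 2 (PRC1 and PRC2), enzymes that add or remove methyl groups at H3K4, H3K27 and H3K79 with their cofactors, and subunits of the BAF chromatin remodelling complex. The list named 42 genes. Each was represented by the probe set, the group of array probes that reads 1 transcript, with the highest mean over 6 arrays among the probe sets annotated to its symbol alone. That rule gave values for 41 genes of the 18193 on the arrays. It gave none for Rybp, because both of its probe sets are also annotated to the pseudogene Rybp-ps. The arrays carried RNA of mouse embryonic stem (ES) cells, strain 129SV: 3 arrays of cells labelled MED23 knockout and 3 arrays of wildtype cells, all harvested after 24 hours in fresh complete medium. Med23 is a subunit of Mediator, which relays signals from transcription factors to RNA polymerase II. The labels call the replicates biological and do not say how many clones or parental lines they came from, so the p values reflect only how far these cultures differ.

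PRC2 methylates H3K27 and PRC1 ubiquitinates histone H2A, and both keep developmental genes silent in ES cells. Trithorax complexes of the COMPASS type methylate H3K4, and BAF complexes slide or evict nucleosomes with energy from ATP; both are generally linked to active genes. Many developmental promoters in ES cells carry H3K4 and H3K27 methylation at once and are then called bivalent. The arrays measured transcript levels only, not histone marks or protein.

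Med23 itself read 7.40, 7.37 and 7.33 (log2) in knockout replicates 1, 2 and 3, against 8.95, 8.86 and 8.84 in wild-type replicates 1, 2 and 3, lower by 2.86-fold (-1.52 ± 0.06 on the log2 scale, SE; adjusted p = 2.69e-05, from limma as for every adjusted p here). Its 1 probe set has no stated position relative to the deletion. The median of all values was 4.62 (log2), and levels near or below it are treated here as close to background. Wild-type replicate 1 stood apart, with 752 probe sets lower by 2-fold or more than the other wild-type arrays averaged, and 1 higher by as much. Of 12 pluripotent cell markers, all 12 had means above 4.62, and their mean level was 11.83 to 11.86 in knockout arrays and 11.79 to 11.98 in wild-type arrays. Of these 12, 0 rose and 3 fell, namely Klf4 (-0.63, log2), Fgf4 (-0.37) and Tdgf1 (-0.28). Y-linked genes separated the groups, among them Kdm5d (5.07 ± 0.30 in knockout and 2.30 ± 0.07 in wild-type arrays, SD, n = 3 each). An effect of Med23 therefore cannot be told apart from other differences between the cell lines.

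Of the 41 genes, 4 rose and 5 fell in knockout cells at an adjusted p under 0.05, and 32 did not pass. Bmi1, Smarcc2, Arid1b and Ash2l rose, and Phc2, Kdm6a, Phc3, Jarid2 and Rbbp5 fell. The share called was 22.0%, against 18.9% of all genes and 26.7% of the 11607 genes with means above 4.62, where the means of all 41 also lay. It is thus near the background. Counts for the role groups below, of 1 to 7 genes each, stand against these same shares. The share of all genes called higher was 8.53% and lower 10.4%. No member changed 2-fold or more, whereas 2.61% of all genes, and 3.73% of those above the median, passed the test at that size. Fold changes of the members ran from -0.84 to 0.61 (log2), with a median of 0.03 and a median size of 0.17; over all genes the median was 0.02 and the median size 0.13. The 3 knockout arrays lay entirely above the 3 wild-type arrays for 13 members and entirely below them for 14, while 40.9% of all genes, and 54.2% of those above the median, separated in this way. Without wild-type replicate 1, 6 members rose and 5 fell, including the same 9. In bulk RNA, fewer cells of a type and less RNA per cell cannot be told apart.

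**Figure D1:**
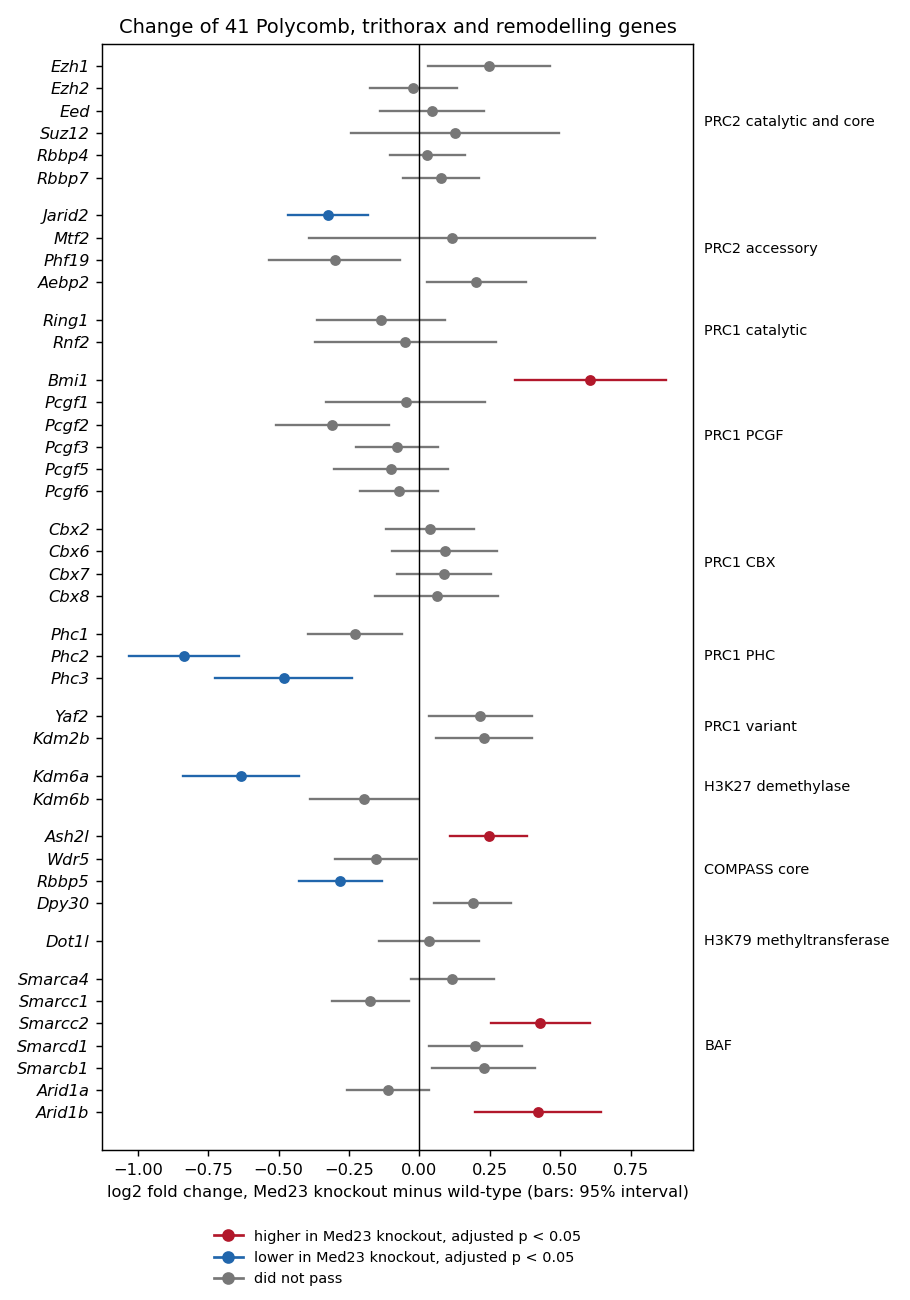
Log2 fold change (knockout minus wild-type) of each of the 41 genes, grouped by role, with the 95% interval from limma as a bar. The 9 coloured genes passed the test, and the largest changes were those of Phc2 (-0.84), Kdm6a (-0.63) and Bmi1 (0.61).

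The promoters of the members are shown for the largest rise and the 2 largest falls, to give the kind of start-site sequence these genes have. RefSeq windows of GRCm38.p6, from 250 bases before to 50 after a start site, were found for 36 of the 41 genes, 51 windows in all. They held a median of 28 CG dinucleotides, against 7 over all 32851 windows. The motif GGGCGG, a GC box bound by SP and KLF factors, was searched on both strands, overlapping matches included, and is in capitals below (CCGCCC is its reverse complement). The lines give Bmi1 at chr2:18676768-18677067 (plus strand), Kdm6a at chrX:18162325-18162624 (plus strand) and, of the 3 Phc2 windows, the one with most CG dinucleotides, at chr4:128727321-128727620 (plus strand).
Bmi1: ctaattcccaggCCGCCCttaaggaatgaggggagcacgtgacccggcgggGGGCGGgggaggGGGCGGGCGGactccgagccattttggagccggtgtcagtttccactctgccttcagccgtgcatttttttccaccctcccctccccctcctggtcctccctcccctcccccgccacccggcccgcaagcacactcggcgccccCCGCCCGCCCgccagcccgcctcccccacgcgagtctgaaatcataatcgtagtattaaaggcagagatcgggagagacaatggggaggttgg
Kdm6a: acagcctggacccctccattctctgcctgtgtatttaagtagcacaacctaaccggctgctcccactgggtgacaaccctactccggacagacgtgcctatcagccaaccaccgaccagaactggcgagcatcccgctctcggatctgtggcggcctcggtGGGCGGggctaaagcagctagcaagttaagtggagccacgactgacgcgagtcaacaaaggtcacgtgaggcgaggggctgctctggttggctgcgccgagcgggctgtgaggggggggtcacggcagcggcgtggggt
Phc2: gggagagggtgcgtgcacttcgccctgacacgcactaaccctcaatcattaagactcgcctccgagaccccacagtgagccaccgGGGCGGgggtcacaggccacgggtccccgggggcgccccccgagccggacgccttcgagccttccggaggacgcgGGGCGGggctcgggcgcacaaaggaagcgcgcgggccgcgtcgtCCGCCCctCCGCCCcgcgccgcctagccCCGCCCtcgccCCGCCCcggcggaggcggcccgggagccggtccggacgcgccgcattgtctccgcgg

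GGGCGG was found in 37 of the 51 member windows (72.5%), against 35.7% of all windows. The motif itself holds a CG dinucleotide, and the windows compared were not matched for CG content. The 2 shares therefore do not show a trait of these genes beyond that content. Bmi1 held 6 matches, Kdm6a 1 and this Phc2 window 6, with 23, 21 and 45 CG dinucleotides. CCGGAA, the core bound by ETS factors such as ELK1, a partner of MED23, was searched in the same way and its matches can share bases with those of GGGCGG. It was found in 10 member windows (19.6%), against 14.9% of all windows. Among the 9 genes that passed the test, 8 had a window; CCGGAA was in 2 of the 5 that fell (Phc2 and Jarid2) and 0 of the 3 that rose, and in 7 of the 28 that did not pass. The counts by gene take all windows of a gene, so they cannot be set against the shares by window. Phc2 and Jarid2 have several windows each, whereas Bmi1, Smarcc2 and Arid1b have only 1 each, and Ash2l, which also rose, has none. These are matches of letters, not sites of binding.

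The catalytic and core subunits of PRC2 showed no call among 6 genes, against 26.7% called of all genes with means above 4.62. Ezh2, the main H3K27 methyltransferase of dividing cells, read 10.85, 10.86 and 10.84 in knockout arrays, against 10.78, 10.92 and 10.91 in wild-type arrays. The groups overlapped (log2 fold change -0.02, SE 0.07, adjusted p = 0.884). Its paralogue Ezh1, which has the same catalytic role and weaker activity, read 7.57, 7.70 and 7.67 in knockout arrays, against 7.48, 7.22 and 7.49 in wild-type arrays. All knockout values were higher, but the difference of 0.25 (SE 0.09) did not pass (adjusted p = 0.134). Rbbp7, a histone-binding subunit encoded on the X chromosome, read 12.93, 12.92 and 12.94 in knockout arrays, against 12.83, 12.87 and 12.86 in wild-type arrays. That difference was 0.08 (SE 0.06, adjusted p = 0.457). The log2 fold changes of the scaffold subunits Eed and Suz12 and of the histone-binding subunit Rbbp4 were 0.04, 0.13 and 0.03. Over the 6 genes the 95% intervals of the log2 fold change reached at most from -0.24 to 0.49, both bounds being those of Suz12. Suz12 was 0.58 lower in wild-type replicate 1 than in the mean of its fellow replicates, and its log2 fold change without that array was -0.07.

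Among accessory subunits of PRC2, which steer the complex to chromatin, Jarid2 fell. Jarid2 helps recruit PRC2 in ES cells. It read 12.01, 11.99 and 11.96 in knockout arrays, against 12.31, 12.36 and 12.26 in wild-type arrays. The groups did not overlap, and the log2 fold change was -0.32 (SE 0.06, adjusted p = 0.0130). Each of its 3 probe sets fell (-0.32, -0.22 and -0.40). The call ended without knockout replicate 2 (adjusted p = 0.0557) and without knockout replicate 3 (adjusted p = 0.0641), with log2 fold changes of -0.33 and -0.31.

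The other accessory subunits did not pass by their brightest probe set. Mtf2, a Polycomb-like subunit that binds unmethylated CpG-rich DNA, read 12.24, 12.14 and 12.19 in knockout arrays, against 11.52, 12.37 and 12.33 in wild-type arrays. Wild-type replicate 1 was the lowest of the 6 arrays, and the groups overlapped. The log2 fold change was 0.12 (SE 0.22) with it and -0.16 (SE 0.06, adjusted p = 0.163) without it. Phf19, another Polycomb-like subunit, had a log2 fold change of -0.30 and Aebp2, a zinc finger subunit of the JARID2-containing form, one of 0.20. A second, dimmer probe set of Aebp2 rose by 0.56 (8.01 in knockout and 7.45 in wild-type arrays, adjusted p = 0.00211), so its call depends on the probe set.

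In PRC1, the ubiquitin ligase genes Ring1 and Rnf2 did not pass. Rnf2, whose product RING1B is the main PRC1 ligase of ES cells, read 10.57, 10.46 and 10.51 in knockout arrays, against 10.25, 10.78 and 10.66 in wild-type arrays. Ring1 read 6.26, 6.40 and 6.47 in knockout arrays, against 6.68, 6.43 and 6.42 in wild-type arrays. Both groups overlapped for each gene, with log2 fold changes of -0.05 and -0.14. A dim probe set of Rnf2 fell by 0.50 (adjusted p = 0.0430), while the 4 brighter ones did not pass.

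PCGF proteins bind RING1A or RING1B and define the subtypes of PRC1. Bmi1, also called Pcgf4 and a subunit of canonical PRC1, was the largest rise among all members. It read 7.67, 7.57 and 7.46 in knockout arrays, against 6.78, 7.18 and 6.91 in wild-type arrays. Every knockout value was above every wild-type value, and the log2 fold change was 0.61 (SE 0.11, adjusted p = 0.0130), or 1.52-fold. Its other probe set, close to background, had a difference of 0.51 (SE 0.26, adjusted p = 0.277). The call ended without knockout replicate 1 (adjusted p = 0.0535), without knockout replicate 2 (adjusted p = 0.0520) and with the mean of both probe sets (adjusted p = 0.0615).

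Pcgf2 (Mel18), the closest paralogue of Bmi1, had a log2 fold change of -0.31 (SE 0.09), with an adjusted p of 0.0552 in limma. The other 4 PCGF genes, Pcgf1, Pcgf3, Pcgf5 and Pcgf6, which belong to variant PRC1 complexes, had log2 fold changes between -0.10 and -0.05. None of these 5 passed the test.

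CBX proteins read H3K27 methylation for canonical PRC1, and none of the 4 genes on the list passed the test. Cbx7, the main CBX gene of ES cells, read 9.78, 9.76 and 9.89 in knockout arrays, against 9.76, 9.64 and 9.76 in wild-type arrays (log2 fold change 0.09, SE 0.07). Cbx6 read 9.10, 9.17 and 9.08 in knockout arrays, against 9.10, 9.08 and 8.89 in wild-type arrays (0.09, SE 0.08). The groups overlapped in both genes. Cbx2 and Cbx8 had log2 fold changes of 0.04 and 0.06, and the 95% intervals of the 4 genes stayed between -0.16 and 0.28.

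The polyhomeotic genes encode SAM-domain subunits through which canonical PRC1 complexes join into larger assemblies, and 2 of the 3 fell. That is 66.7% called in a group of only 3, against 26.7% of all genes with means above 4.62. Phc2 read 7.45, 7.40 and 7.37 in knockout arrays, against 8.31, 8.33 and 8.09 in wild-type arrays. The gap between the groups was wider than the spread within either, with a fold change of -0.84 ± 0.08 (log2, SE; adjusted p = 0.000839), or 1.79-fold lower. Its second probe set fell by 0.58. The Phc2 call held in each of the 14 alternatives tried, with log2 fold changes from -0.91 to -0.58.

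Phc3 read 5.88, 5.94 and 5.93 in knockout arrays, against 6.17, 6.50 and 6.52 in wild-type arrays. It fell by 0.48 (SE 0.10, adjusted p = 0.0217), with wild-type replicate 1 nearest to the knockout values. The call ended without knockout replicate 1, 2 or 3 (adjusted p = 0.0786, 0.0710 and 0.0711), without wild-type replicate 2 (adjusted p = 0.0772) and without wild-type replicate 3 (adjusted p = 0.0646). With the mean of its probe sets the log2 fold change was -0.27 (adjusted p = 0.0541). Phc1, the other gene of the family, had a fold change of -0.23 ± 0.07 (log2, SE; adjusted p = 0.0780), also with all knockout arrays below all wild-type arrays.

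Yaf2 and Kdm2b belong to variant PRC1, in which YAF2 or RYBP replaces CBX and KDM2B binds CpG islands. Yaf2 read 7.70, 7.72 and 7.63 in knockout arrays, against 7.56, 7.51 and 7.34 in wild-type arrays. Kdm2b read 10.51, 10.56 and 10.47 in knockout arrays, against 10.31, 10.37 and 10.18 in wild-type arrays. Neither pair of groups overlapped, and the log2 fold changes of 0.22 and 0.23 missed the threshold (adjusted p = 0.125 and 0.0849). A dimmer probe set of each passed, with rises of 0.27 in Yaf2 and 0.27 in Kdm2b. The 2 probe sets shared by Rybp and its pseudogene had log2 fold changes of 0.07 and -0.09, and neither passed.

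The H3K27 demethylase gene Kdm6a (Utx) fell. It read 8.47, 8.45 and 8.48 in knockout arrays, against 8.94, 9.25 and 9.11 in wild-type arrays. The knockout values were nearly identical and all below the wild-type values, with a fold change of -0.63 ± 0.09 (log2, SE; adjusted p = 0.00360), or 1.55-fold lower. A second probe set fell by the same 0.63, and the 2 dim ones did not pass. The call held in all 14 alternatives, with log2 fold changes from -0.71 to -0.34. The smallest was that of the mean over its 4 probe sets, which passed narrowly (adjusted p = 0.0499).

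Kdm6a lies on the X chromosome, and its Y-linked paralogue Uty, which has little demethylase activity, differed between the groups in the opposite direction. Uty read 6.38, 5.44 and 5.93 in knockout arrays, against 3.48, 3.03 and 2.96 in wild-type arrays, where all 3 values were below the median of 4.62. All 4 Uty probe sets were higher in knockout arrays. The Y-linked genes Eif2s3y, Uba1y and Kdm5d also had wild-type means below that median (3.04, 2.82 and 2.30). In wild-type arrays these Y-linked genes were thus at background. For Uty too, an effect of Med23 loss cannot be told apart from other differences between the lines. The 245 brighter X-linked genes had a median log2 fold change of 0.04 and the 7371 brighter autosomal genes one of 0.03. Of the X-linked genes 35 rose and 51 fell (35.1% called), and of the autosomal genes 995 rose and 978 fell (26.8% called). The median size of the change was 0.24 for X-linked and 0.16 for autosomal genes, and the difference between these shares was not tested. Whether the sex chromosomes of the lines bear on the Kdm6a value was not tested. Kdm6b, the inducible demethylase of the same family, had a fold change of -0.20 ± 0.08 (log2, SE; adjusted p = 0.179).

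The 4 genes shared by the COMPASS methyltransferase complexes moved in both directions. Ash2l, which stimulates the methyltransferase together with RbBP5, read 12.46, 12.42 and 12.44 in knockout arrays, against 12.23, 12.18 and 12.18 in wild-type arrays. It rose by 0.25 (SE 0.06, adjusted p = 0.0326), and a dimmer probe set rose by 0.61. Rbbp5 read 9.50, 9.59 and 9.54 in knockout arrays, against 9.88, 9.80 and 9.80 in wild-type arrays. It fell by 0.28 (SE 0.06, adjusted p = 0.0258). Both genes had groups that did not overlap and small changes of 1.19-fold and 1.21-fold.

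Both COMPASS calls were open to the choice of arrays. For Ash2l the call ended without knockout replicate 1, 2 or 3 (adjusted p = 0.119, 0.0949 and 0.116) and without wild-type replicate 2 or 3 (adjusted p = 0.0887 and 0.0709). For Rbbp5 it ended without knockout replicate 1, 2 or 3 (adjusted p = 0.100, 0.0657 and 0.0975) and without wild-type replicate 2 (adjusted p = 0.0629). Dpy30 and Wdr5, the other shared subunits, had log2 fold changes of 0.19 and -0.15 and did not pass. Dot1l, the H3K79 methyltransferase, read 7.63, 7.60 and 7.56 in knockout arrays, against 7.64, 7.44 and 7.61 in wild-type arrays, with a log2 fold change of 0.03 (SE 0.07).

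Of 7 BAF genes, 2 rose and 5 did not pass. The share called, 28.6%, was near the 26.7% of all genes with means above 4.62. Smarcc2 (BAF170) and Smarcc1 (BAF155) encode related scaffold subunits, the second of which dominates in mouse ES cells. Smarcc2 read 6.70, 6.61 and 6.71 in knockout arrays, against 6.19, 6.19 and 6.36 in wild-type arrays. It rose by 0.43 (SE 0.07, adjusted p = 0.00964), or 1.35-fold. The Smarcc2 call held in all 14 alternatives, with an adjusted p of up to 0.0473 (without knockout replicate 3). Smarcc2 has only 1 probe set, so the alternatives that change the probe set bring no other reading of it. Smarcc1 had a log2 fold change of -0.17 (adjusted p = 0.103), with all knockout arrays lower, and 1 of its 3 dimmer probe sets fell by 0.32.

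Arid1b and Arid1a encode the alternative DNA-binding subunits of canonical BAF. Arid1b read 7.58, 7.63 and 7.65 in knockout arrays, against 7.34, 7.24 and 7.01 in wild-type arrays. It rose by 0.42 (SE 0.09, adjusted p = 0.0271), and the groups did not overlap. The call ended without knockout replicate 1, 2 or 3 (adjusted p = 0.0717, 0.0932 and 0.0960) and without wild-type replicate 2 (adjusted p = 0.0681). Arid1a had a log2 fold change of -0.11. The ATPase gene Smarca4 (BRG1) and the core subunit genes Smarcb1 and Smarcd1 had log2 fold changes of 0.12, 0.23 and 0.20 and did not pass.

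**Figure D2:**
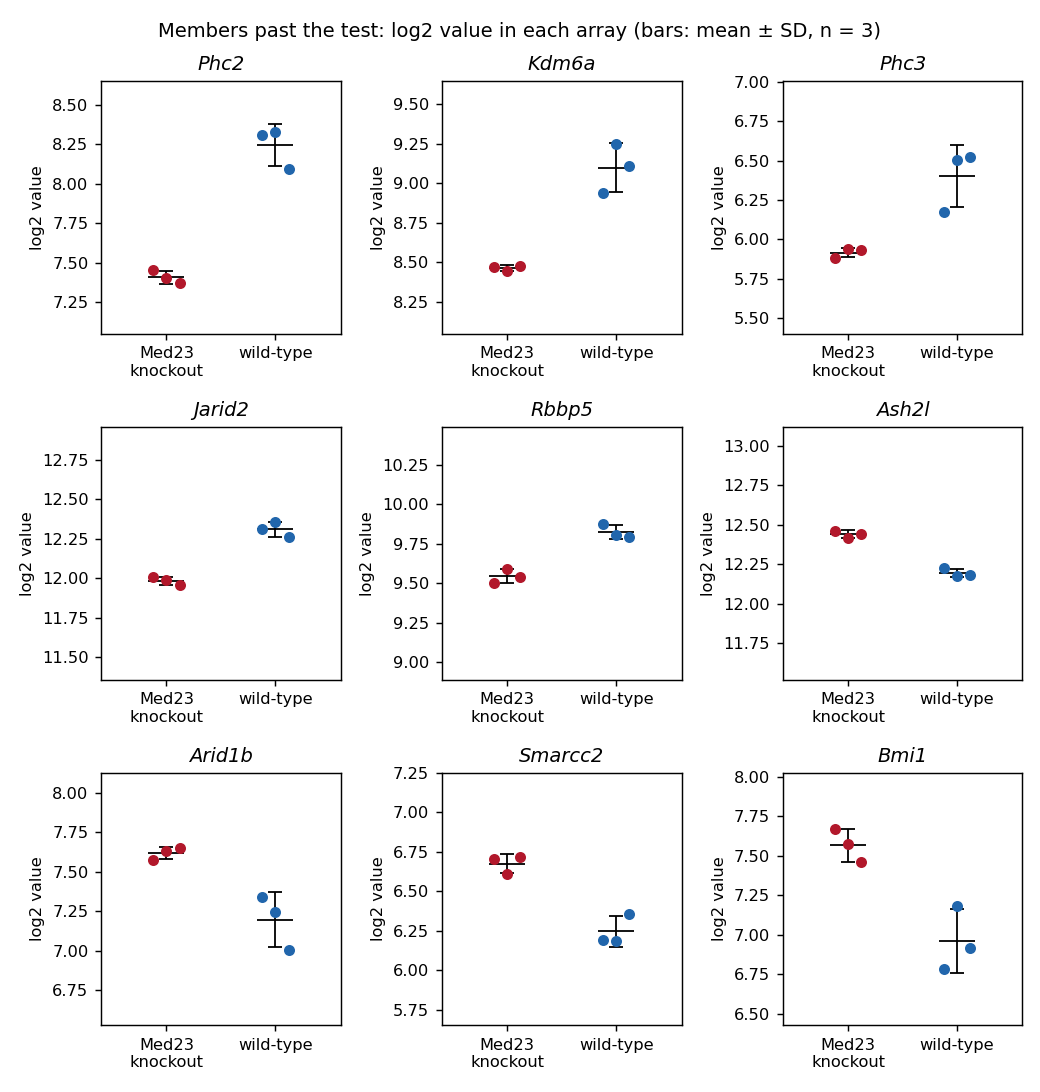
Log2 value of the 9 genes past the test in each array, knockout on the left and wild-type on the right of each panel, with the mean and SD (n = 3) as black bars. Every panel spans the same range of 1.6 (log2), and in none do the 2 groups overlap.

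The spread within groups was unequal. Over all probe sets, the lowest correlation of an array with a fellow replicate was 0.993 in the wild-type group and 0.998 in the knockout group. Wild-type replicate 1 was the lowest of all 6 arrays in 7 of the 41 genes, near an even share. It lay at least 0.5 below the mean of its fellow replicates in 2, Suz12 and Mtf2, and in none by as much above. Of the 32 members that did not pass, 29 had a 95% interval of the log2 fold change inside ±0.5 and all 32 one inside ±1. The members were read by more than 1 probe set in 33 of 41 cases. Of the 103 single-symbol probe sets of the members, 8 rose and 12 fell (19.4%), against 14.1% called among all 45037 probe sets. In 0 members did probe sets pass in opposite directions.

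**Figure D3:**
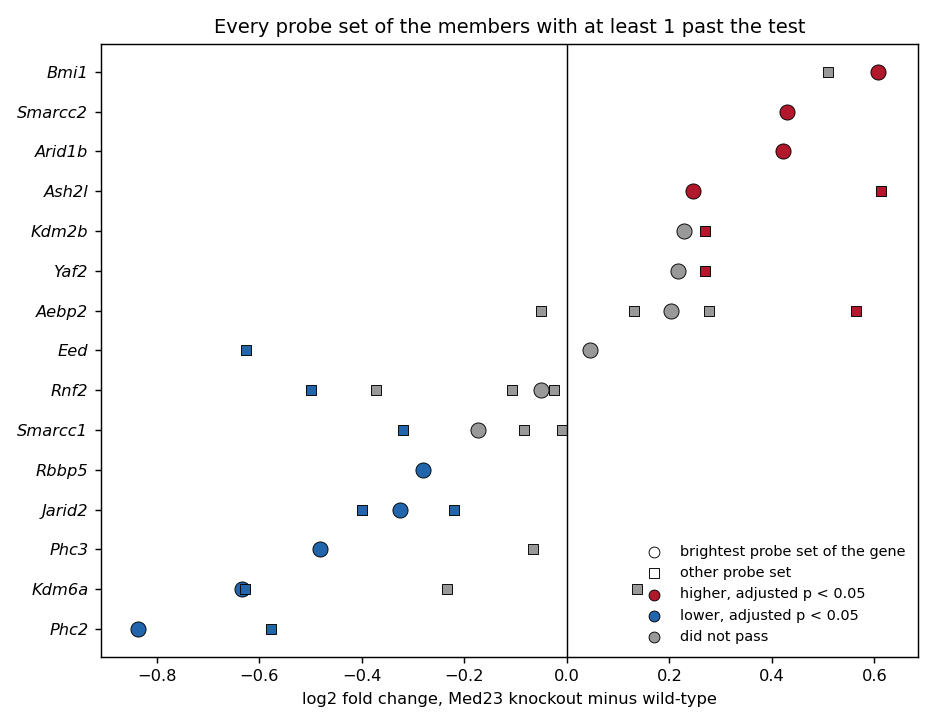
Log2 fold change (knockout minus wild-type) of every probe set of the members that had at least 1 past the test. Large circles are the brightest probe set of a gene, which stands for it in the text, and small squares the others; Aebp2, Kdm2b, Yaf2, Eed, Rnf2 and Smarcc1 passed by a dimmer probe set only.

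Related members were set against each other within each array, for 6 pairs chosen after their values were seen. The difference between 2 probe sets in 1 array has no meaning as a level, and only its shift between groups is given. Bmi1 minus Pcgf2 was higher by 0.92 (log2) in knockout arrays, a ratio shifted 1.89-fold. Smarcc2 minus Smarcc1 was higher by 0.60 and Arid1b minus Arid1a by 0.53. Phc2 minus Phc1 was lower (-0.61), as were Kdm6a minus Kdm6b (-0.44) and Ezh2 minus Ezh1 (-0.27). Each pair holds at least 1 gene whose groups do not overlap, so these values are a description with no test.

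**Figure D4:**
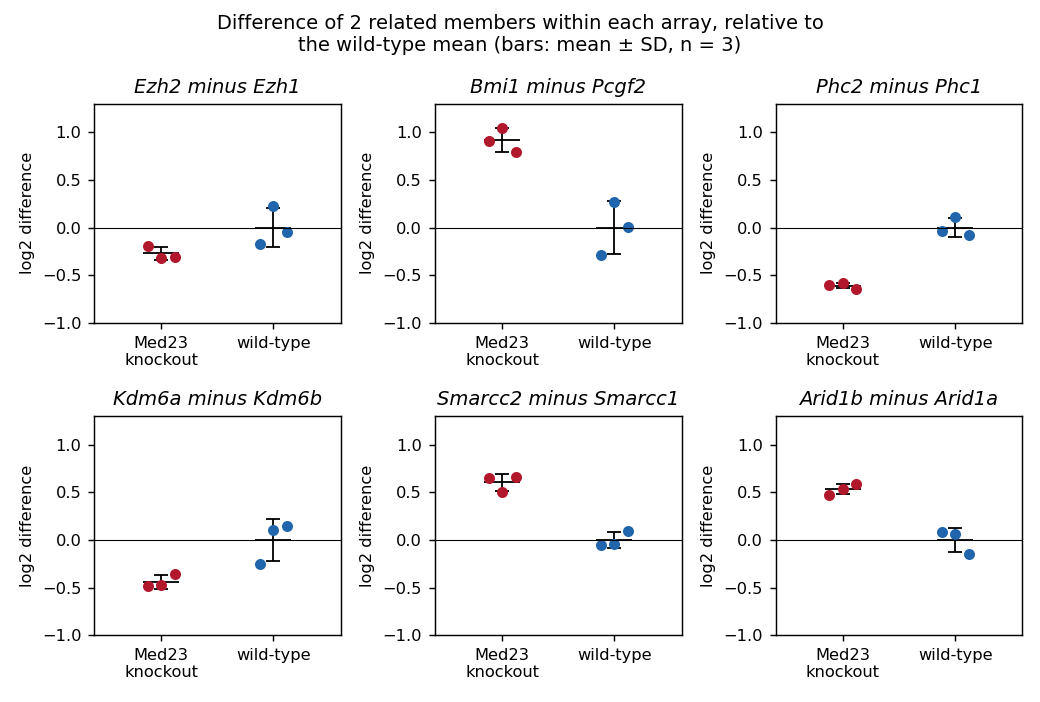
Difference of the log2 values of 2 related genes within each array, shifted so that the wild-type mean is 0, with the mean and SD (n = 3) as bars. The pairs were chosen after their values were seen, and the mean shifts run from -0.61 for Phc2 minus Phc1 to 0.92 for Bmi1 minus Pcgf2.

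Position along the chromosome was described by the median log2 fold change of the 10 nearest brighter genes (mean log2 value above 7) on each side, in RefSeq order. Phc3, on chromosome 3, was the 1 member whose neighbours had a median below -0.4. Of its 20 neighbours, 16 fell, their median was -0.62, and Phc3 itself lay 0.14 above that median. Its fall was no larger than that of the genes around it. Kdm6a had neighbours with a median of -0.20, of which 7 of 20 fell, and lay at -0.44 relative to them. Ash2l, on chromosome 8, rose although 7 of its 20 neighbours fell and none rose (median -0.22), a difference of 0.46. For Phc2, Jarid2, Rbbp5, Bmi1, Smarcc2 and Arid1b the neighbours' medians lay between -0.03 and 0.16. Arid1b had 12 such neighbours.

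**Figure D5:**
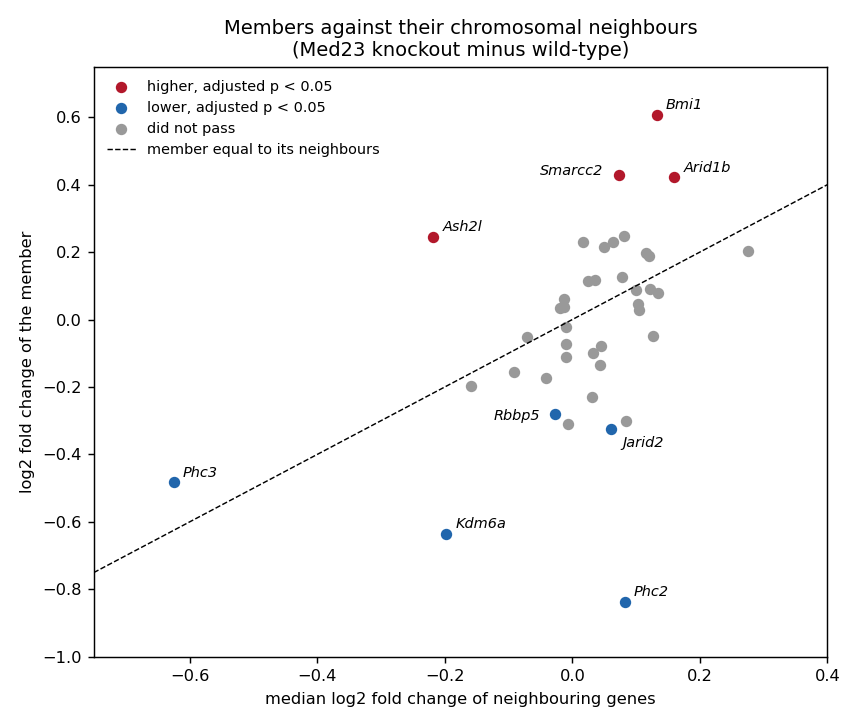
Log2 fold change of each member (vertical axis) against the median log2 fold change of its neighbouring genes (horizontal axis), both knockout minus wild-type. Phc3 sits at the far left near the dashed line of equality, whereas Phc2, at -0.84, has neighbours with a median of 0.08.

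Other genes of the same complexes were taken from lists that hold no member. The shares called below stand against 18.9% of all genes and 26.7% of those with means above 4.62. Of 21 further PRC1, PRC2 and deubiquitinase genes, 4 rose and 4 fell (38.1% called, median log2 fold change 0.11). Epop, a PRC2 subunit that also binds elongin, fell by 1.20 (7.30 ± 0.05 in knockout and 8.50 ± 0.08 in wild-type arrays, SD, n = 3 each; adjusted p = 8.95e-05), more than any member. Bap1, the H2A deubiquitinase, and Sfmbt1 fell by 0.88 and 0.65, but both lie on chromosome 14 among neighbours with medians of -0.70 and -0.57. Of 18 further H3K4 methylation genes, 2 rose and 0 fell (11.1% called, median 0.04). Those that rose were Psip1 (0.39) and the demethylase gene Kdm1a (0.36).

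Of 20 further BAF and PBAF genes, 1 rose and 3 fell (median 0.03). Actl6a (BAF53A), the actin-related subunit of progenitor cells, fell by 0.89, among neighbours on chromosome 3 with a median of -0.52. Bcl7b and Smarce1 fell by 0.31 and 0.29, and another probe set of Smarce1 passed in the opposite direction. Of 29 genes of ISWI, CHD, NuRD and INO80 remodellers, 5 rose and 4 fell (31.0% called, median 0.04). Among them were Mbd2 (-0.97), Chd8 (-0.76) and Chd3 (-0.72). The neighbours of Chd8, on chromosome 14, had a median of -0.77.

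Developmental regulators known as Polycomb targets in ES cells gave 3 rises and 10 falls among 76 measured genes, 17.1% called against 18.9% of all genes, with a median log2 fold change of -0.01. In 45 of the 76 neither group mean exceeded 4.62. Of the 26 with a mean over all arrays above 4.62, 10 were called (38.5%), against 26.7% of all genes above that level. That mean covers both groups, so Olig1, Sox17 and Meis2 passed the level only through the group where they were higher. These shares are therefore a description and no support for a difference. Of the 76, 8 passed the test at 2-fold or more (10.5%), against 2.61% of all genes. None of 30 Hox genes passed in limma, 5 of them having an unadjusted p under 0.05, and 9 of them were above that median in at least 1 group. Pax6, Meis2 and Cdkn2a rose (2.21, 1.03 and 0.50), whereas the largest falls were those of Olig1 (-4.15), Gata6 (-2.59) and Sox17 (-2.45). Olig1 and Sox17 had knockout means of 3.65 and 4.38, below the median, so the sizes of their falls are uncertain. The same holds for the 2-fold calls of Olig2 and Foxa2 (knockout means 3.36 and 3.60) and of Meis2 (wild-type mean 4.18).

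Of the 13 targets called, 5 are also on the marker lists of other cell types. Among 16 extraembryonic endoderm markers, 14 fell and 0 rose (87.5% called, against 18.9% of all genes). Their mean level was 5.51 to 5.61 in knockout arrays and 7.39 to 7.80 in wild-type arrays. Of 10 trophoblast markers 4 fell (40.0%). Fibroblast markers gave 2 rises and 1 fall among 10 (30.0%), and neural progenitor markers 1 rise and 1 fall among 7 (28.6%). The part of such cells in the changes of the members was not tested.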

How the data were processed

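RNA of 6 ES cell cultures was labelled and hybridised to Affymetrix arrays, as the labels' protocols state. The authors deposited 1 table of values, 1 column for each array, taken here to be log2 from their range, since no source used here states the scale. RMA and MAS5 are named, per the submitters' processing notes, with no role for either. The values were used as deposited, since array medians lay between 4.61 and 4.64. Detection calls were not used here. The number of arrays limits the precision.

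After 64 control probe sets were left out, 45037 were tested with limma 3.58.1 in R 4.3.3 (lmFit, eBayes; two-sided), and p values were adjusted by the Benjamini-Hochberg method across this whole set. Symbols came from the platform annotation (34945 probe sets with 1 symbol, 932 with several), 34741 of them updated through RefSeq (GRCm38.p6). The values name no genome build, so that table gave names, gene order and promoter windows only. The 95% intervals used limma's moderated degrees of freedom.

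The members and lists were chosen with earlier results of these data known. Members were named with all array values where they passed the test, or as the 2 with the lowest p of a role group with no call. In the other lists up to 3 of the largest changes past the test were named. Uty was named by rule beside Kdm6a, as its Y-linked paralogue. The array values of Ezh2 and Mtf2, and the other genes named outside these rules (Pax6, Meis2, Cdkn2a and Cdkn2b among them), were chosen after their values were seen. Titles gave each array its group and number. The labels state no pairing of the numbers. Deviations of same-numbered arrays from their group means correlated at -0.13, -0.06 and 0.00, and those of differently numbered arrays at -0.11 to 0.12. With 3 arrays in each group these values cannot exclude a shared batch. The fit was tested on simulated data.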

Additional observations from a re-analysis of the deposited data

How the results depend on the processing

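Quantile normalization and centring each array on its median left the same 9 members called, 4 higher and 5 lower. A variance prior with a trend and robust estimation gave 8 higher and 9 lower, leaving out dim probe sets before the fit gave 6 higher and 8 lower, and the mean of all probe sets of a gene gave 7 higher and 5 lower. Leaving out 1 array at a time gave 1 to 6 members higher and 2 to 5 lower. Over all probe sets, 3013 were higher and 3346 lower; leaving out 1 array gave 1497 to 3494 higher and 2289 to 3613 lower. With the replicate number as a block, 2 members were higher and 3 lower, and 1915 probe sets were higher. The calls of Arid1b, Ash2l, Jarid2 and Rbbp5 ended in that fit, and the labels state no pairing by number. Of the 9 calls, those of Phc2, Kdm6a and Smarcc2 held in all 14 alternatives. Their highest adjusted p values in limma were 0.00646, 0.0499 and 0.0473, the last 2 close to the threshold. No called member changed direction in any alternative. Among named members that did not pass, the log2 fold change of Dot1l ran between -0.028 and 0.073 and that of Rnf2 between -0.21 and 0.060 when 1 array was left out, both changing sign without wild-type replicate 2. That of Cbx6 was -0.025 with probe sets without a suffix. Fewer arrays leave fewer degrees of freedom, so a call lost in this way need not be a smaller change.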

Other observations

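The neighbouring cell cycle inhibitor genes Cdkn2a and Cdkn2b passed the test in opposite directions. BMI1 is known to repress Cdkn2a in mouse fibroblasts and neural stem cells. Cdkn2a read 7.46, 7.55 and 7.48 (log2) in knockout arrays, against 7.18, 6.88 and 6.92 in wild-type arrays (log2 fold change 0.50, SE 0.09, adjusted p = 0.0121). Cdkn2b read 5.78, 5.58 and 5.63 in knockout arrays, against 6.03, 6.08 and 6.50 in wild-type arrays (-0.54, SE 0.13, adjusted p = 0.0370). Neither pair of groups overlapped. Each gene was read by 1 probe set, and Bmi1 itself rose by 0.61. A link between these values was not tested.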
